A study of Rattus norvegicus with 9 samples.

Results

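The genes of 10 enzymes and helper proteins that make prostaglandins and leukotrienes were followed in rat spinal cord on day 3 after a contusion at the thoracic segment T9. They were chosen by symbol, and each of the 10 had 1 row among the 36051 genes of the count table. The groups were injured rats given α-lipoic acid (SCI_ALA), injured rats given normal saline (SCI_Veh) and rats with a sham operation (sham), all labelled wild type and each sequenced as 3 libraries. The sulfur-containing cofactor α-lipoic acid is used as an antioxidant, and the study asked how limiting oxidative stress changes the transcriptome of the injured cord. Strain, age, sex, dose and whether replicates came from separate animals were not given in the sources used here, so p-values measure the spread between these libraries, which may be technical.

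Prostaglandins and leukotrienes are short-lived lipid signals made from arachidonic acid that phospholipases release from membranes. The cyclooxygenases, encoded by Ptgs1 and Ptgs2, turn arachidonic acid into prostaglandin H2, which terminal synthases convert to prostaglandin E2 (Ptges) or prostaglandin D2 (Ptgds and Hpgds). In the leukotriene branch, 5-lipoxygenase (Alox5) works with its activating protein (Alox5ap) to form leukotriene A4, which becomes leukotriene B4 through Lta4h or leukotriene C4 through Ltc4s. Alox15 encodes a lipoxygenase of another position on the fatty acid, known for products that take part in the resolution of inflammation. In the central nervous system Ptgds is known as an abundant transcript of the leptomeninges and of oligodendrocytes, and Alox5 and Alox5ap are known from myeloid cells.

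Libraries held 13857771 to 15736132 counts. Levels below are CPM (counts scaled to a common library size with TMM factors), and levels of different genes are compared only as the authors' FPKM, which divide by gene length. Summed markers of mature oligodendrocytes (10 genes) stood at 24054 to 33611 CPM in SCI_ALA, 19405 to 32638 in SCI_Veh and 47472 to 85211 in sham, and those of neurons (8 genes) at 2029.5 to 2701.3 CPM in SCI_ALA, 1599.6 to 2387.4 in SCI_Veh and 4238.8 to 6796.7 in sham. Markers of spinal tissue were thus present in all 9 libraries. Long genes were favoured to a different degree from library to library. The Spearman correlation across genes between gene length and a library's deviation from the mean of the 9 libraries was -0.46 to 0.03 in SCI_ALA, 0.05 to 0.12 in SCI_Veh and -0.19 to 0.34 in sham. Mitochondrial genes took 6.40% to 8.08% of counts in SCI_ALA, 6.50% to 8.10% in SCI_Veh and 8.59%, 15.68% and 12.3% in sham libraries 1 to 3, so that all sham libraries lay above all injured ones, with sham 2 the highest. The part of this share in the changes against sham was not tested.

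The sequence upstream of 5 of these genes is shown because 4 of them passed the test against sham in both injured groups (Ptgs1, Ptges and Lta4h higher, Ptgds lower) and because Ptgs2 stands beside its sister gene Ptgs1 without having passed. RefSeq entries on the build GRCr8, which is newer than the build of the counts, were found for 7 of the 10 genes. Hpgds and Alox5ap, which were also higher in both injured groups, and Alox15 were not among them. Each covers 250 bases before and 50 bases after the annotated start. They are given 5′ to 3′ along the gene, with matches to 7 short motifs in capitals.

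Ptgs1, chr3:39981169-39981468, plus strand: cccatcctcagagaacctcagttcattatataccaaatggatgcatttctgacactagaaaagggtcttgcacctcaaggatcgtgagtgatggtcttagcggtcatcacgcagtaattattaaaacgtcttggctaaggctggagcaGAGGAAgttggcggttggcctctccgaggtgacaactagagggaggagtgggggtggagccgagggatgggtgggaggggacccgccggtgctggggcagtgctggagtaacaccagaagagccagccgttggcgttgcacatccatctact
Ptges, chr3:34586938-34587237, minus strand: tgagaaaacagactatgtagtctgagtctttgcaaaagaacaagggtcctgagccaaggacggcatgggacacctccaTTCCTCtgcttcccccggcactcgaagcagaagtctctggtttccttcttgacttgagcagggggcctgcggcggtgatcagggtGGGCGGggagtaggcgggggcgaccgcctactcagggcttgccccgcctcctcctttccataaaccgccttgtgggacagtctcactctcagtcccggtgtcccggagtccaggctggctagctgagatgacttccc
Lta4h, chr7:29856621-29856920, plus strand: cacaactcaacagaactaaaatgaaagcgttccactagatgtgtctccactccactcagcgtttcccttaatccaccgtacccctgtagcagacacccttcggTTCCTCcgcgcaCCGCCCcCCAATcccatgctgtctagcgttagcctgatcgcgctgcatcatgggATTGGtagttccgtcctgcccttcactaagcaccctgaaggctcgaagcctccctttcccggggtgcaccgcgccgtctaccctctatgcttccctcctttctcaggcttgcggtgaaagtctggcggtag
Ptgds, chr3:28682929-28683228, minus strand: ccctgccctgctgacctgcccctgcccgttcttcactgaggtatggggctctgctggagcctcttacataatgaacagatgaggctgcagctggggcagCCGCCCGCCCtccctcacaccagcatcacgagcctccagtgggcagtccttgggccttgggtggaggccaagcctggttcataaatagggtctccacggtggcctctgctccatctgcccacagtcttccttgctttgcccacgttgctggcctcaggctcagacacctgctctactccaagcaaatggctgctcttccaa
Ptgs2, chr13:64713813-64714112, plus strand: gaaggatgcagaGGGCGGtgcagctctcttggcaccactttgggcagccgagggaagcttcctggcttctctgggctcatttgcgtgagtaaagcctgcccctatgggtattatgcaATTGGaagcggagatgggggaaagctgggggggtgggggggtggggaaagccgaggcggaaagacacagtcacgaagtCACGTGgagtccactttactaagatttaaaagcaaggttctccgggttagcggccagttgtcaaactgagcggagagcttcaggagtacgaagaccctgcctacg

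The motifs were searched on both strands as exact letters. They were the TATA box (TATAAA, in 14.2% of the 33469 promoters in the table), the GC box (GGGCGG, 33.1%), the CCAAT box (CCAAT, 37.5%), the core of the sites of ETS factors such as PU.1 (GAGGAA, 27.6%), the AP-1 site (TGANTCA, 7.33%), the core of a cAMP response element (TGACGT, 7.94%) and the E-box (CACGTG, 6.42%). Of the 7 promoters 3 held 1 copy of GAGGAA, at -102 to -97 in Ptgs1 and, on the other strand, at -172 to -167 in Ptges and -147 to -142 in Lta4h. The windows of Ptgds, Ptgs2, Alox5 and Ltc4s did not hold those letters. The Ptgds window held a pair of GC boxes on the other strand that overlap each other, at -151 to -146 and -147 to -142. The Ptgs2 window held a GC box, a CCAAT box on the other strand and the only E-box among the 7 promoters, at -55 to -50. GC boxes were found in 5 of the 7 promoters, also in Ptges (-87 to -82), Lta4h (-135 to -130) and Alox5 (-61 to -56). CCAAT boxes were found in 3 of the 7, also in Lta4h (-128 to -124 and -81 to -77) and Ltc4s (-33 to -29). No window held a TATA box, an AP-1 site or the cAMP element core. The GC content of the 5 windows was 54.3% to 60.7%, where the median promoter had 51.7%. A match is a run of letters and not a measured binding site.

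Injury with saline changed 6 of the 10 genes. Ptgds was lower in SCI_Veh than in sham, while Ptgs1, Ptges, Hpgds, Alox5ap and Lta4h were higher, at an adjusted p below 0.05 in edgeR's quasi-likelihood test over 16678 genes. Among all tested genes 19.5% were higher and 18.5% were lower (38% in all), beside 5 of 10 higher and 1 of 10 lower here. The 10 genes were chosen with earlier results of these data known, so these counts do not test for an excess. The count of 5 higher ran from 2 to 5 over the alternatives described below. The libraries of SCI_Veh and sham did not overlap for these same 6 genes. Among all genes 49.7% did not overlap, 25.8% being higher and 23.9% lower. Ptgs2, Alox5, Alox15 and Ltc4s did not pass, and their libraries overlapped. The median log2 change of the 10 genes was 0.64, beside 0.00 over all tested genes.

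**Figure D1:**
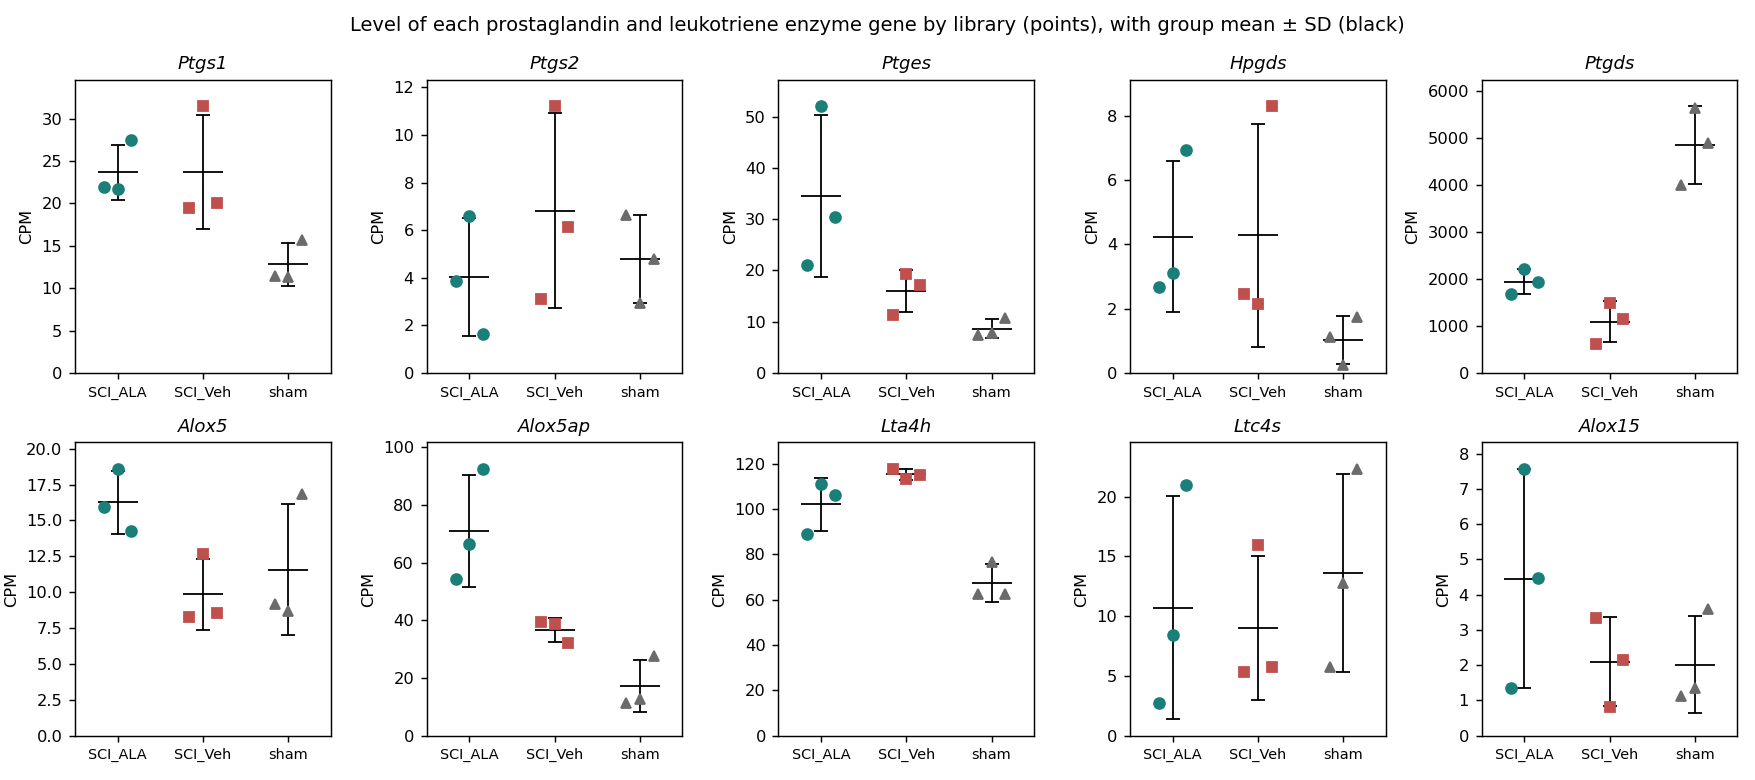
Level of each of the 10 genes in CPM (linear axes) in the 3 libraries of SCI_ALA, SCI_Veh and sham, with each group's mean and SD as black bars. Ptgds is lower in all injured libraries than in all sham libraries, and Lta4h, Ptgs1, Ptges, Hpgds and Alox5ap are higher in all injured libraries than in all sham libraries. The groups overlap for Ptgs2, Ltc4s and Alox15. For Alox5, sham overlaps both injured groups, which do not overlap each other.

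Of the prostaglandin genes, Ptgs1 encodes the cyclooxygenase that most cells carry at rest and that macrophages and microglia are known to express. It lies on chromosome 3, 15560712 to 15582344 (ENSRNOG00000007415, with coordinates on Rnor_6.0). Its level was 19.5, 31.5 and 20.1 CPM in SCI_Veh libraries 1, 2 and 3, and 11.4, 11.3 and 15.71 CPM in the sham libraries. Each SCI_Veh library thus stood above every sham library, with SCI_Veh 2 the highest of the 9 libraries. Ptgs1 was 1.85-fold higher in SCI_Veh (log2 0.89, SE 0.23, n = 3 each, edgeR adjusted p = 0.0104). Without SCI_Veh 2 the adjusted p was 0.0571.

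Ptgs2, the inducible cyclooxygenase that inflammatory stimuli and neuronal activity switch on in other settings (chromosome 13, 67351087 to 67359335, ENSRNOG00000002525), had 3.09, 11.2 and 6.14 CPM in SCI_Veh and 6.62, 2.93 and 4.79 CPM in sham. SCI_Veh 2 stood above the sham range and the other SCI_Veh libraries lay within it, so the groups overlapped. The log2 change was 0.51 with a 95% interval of -0.68 to 1.69 (edgeR adjusted p = 0.492), which leaves room for changes in either direction. Without SCI_Veh 2 the log2 change was -0.05. Per length, the FPKM of Ptgs1 was 6.45 ± 2.97 times that of Ptgs2 in SCI_Veh and 4.61 ± 1.73 times in sham (mean ± SD, n = 3), and it was above that of Ptgs2 in each of the 9 libraries.

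Ptges encodes the inducible microsomal prostaglandin E synthase (chromosome 3, 9727408 to 9738752, ENSRNOG00000006320). It stood at 11.4, 19.3 and 17.1 CPM in SCI_Veh, against 7.40, 7.75 and 10.7 CPM in sham. The lowest SCI_Veh library lay only just above the highest sham library. Ptges was 1.84-fold higher (log2 0.88, SE 0.32, edgeR adjusted p = 0.0481). This call stood close to the threshold. The adjusted p was 0.155, 0.105, 0.13, 0.14 and 0.0591 without SCI_Veh 2, SCI_Veh 3, sham 1, sham 2 and SCI_ALA 3, and 12 of 21 alternatives lost the call.

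The 2 synthases of prostaglandin D2 went in opposite directions. Ptgds, the lipocalin-type enzyme (chromosome 3, 2686123 to 2689084, ENSRNOG00000015550), had 626 CPM, 1491 CPM and 1158 CPM in SCI_Veh, against 4004, 5658 and 4900 CPM in sham. Every SCI_Veh library stood below every sham library by a wide margin. Ptgds was 4.45-fold lower in SCI_Veh (log2 -2.15, SE 0.29, edgeR adjusted p = 0.000177), and the call held under all 21 alternatives. In bulk tissue, fewer cells of a type and less RNA per cell cannot be told apart. Mature oligodendrocyte markers were lower in 8 of 10 genes in the same comparison, with none at 0, while the summed level of 10 meningeal fibroblast markers was 2926.9 to 4505.1 CPM in SCI_Veh and 2893.6 to 4140.4 CPM in sham. That sum joined genes that moved in opposite directions. Of those meningeal markers 2 were higher (Crabp2 2.42-fold and Col1a1 1.91-fold) and 2 lower (Igf2 3.06-fold and Slc22a6 5.20-fold). Igf2 averaged 263 CPM in SCI_Veh and 804 CPM in sham, and Col1a1 1123 CPM in SCI_Veh and 587 CPM in sham. The part of either cell type in the fall of Ptgds was not tested.

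Hpgds, the hematopoietic-type synthase known from microglia, macrophages and mast cells (chromosome 4, 95946025 to 95970666, ENSRNOG00000006583), had 2.44, 2.13 and 8.29 CPM in SCI_Veh, against 1.11, 0.237 and 1.73 CPM in sham. The third SCI_Veh library stood far above the other two, and sham 2 rested on 3 counts. Hpgds was 4.10-fold higher (log2 2.03, SE 0.71, edgeR adjusted p = 0.0401). Without SCI_Veh 3 the log2 change was 1.145 and the adjusted p 0.226, and the adjusted p was 0.0895, 0.0993 and 0.0522 without sham 1, sham 2 and SCI_ALA 2. Over all alternatives the call was lost in 8 of the 20 that tested Hpgds. Mast cell markers were scarce, with 3 of 9 genes tested, 0 called by edgeR (1 at an unadjusted p below 0.05), and summed levels of 12.9 to 23.2 CPM in SCI_Veh and 27.5 to 39.2 CPM in sham. Most of that sum was Kit, which other cells also express, at 11.1 to 22.9 CPM in SCI_Veh and 20.4 to 34.1 CPM in sham. None of the other mast cell genes exceeded 1.15 CPM in a SCI_Veh library or 2.45 CPM in a sham library. Their part in the Hpgds result was not tested.

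In spite of its fall, Ptgds remained the most abundant of the 10 genes per length. Its FPKM averaged 1370 ± 560 in SCI_Veh and 6133 ± 1038 in sham (mean ± SD, n = 3). It made up 85.8% to 92.1% of the summed FPKM of the 10 genes in SCI_Veh libraries, against 98.0% to 98.7% in sham libraries. The FPKM of Hpgds averaged 3.59 ± 2.89 in SCI_Veh and 0.872 ± 0.641 in sham, so that in each library Ptgds lay more than 200-fold above Hpgds, from 208 times in SCI_Veh 3 to 35599 times in sham 2.

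Of the leukotriene genes, Lta4h had the steadiest rise. Lta4h encodes leukotriene A4 hydrolase, which forms leukotriene B4, an attractant of neutrophils, and lies on chromosome 7, 34288365 to 34320235 (ENSRNOG00000004494). It had 118, 113 and 115 CPM in SCI_Veh, against 62.4, 76.8 and 62.3 CPM in sham. The SCI_Veh libraries lay within 1.04-fold of one another and well above the sham libraries. Lta4h was 1.72-fold higher (log2 0.78, SE 0.15, edgeR adjusted p = 0.00144), and this call held under all 21 alternatives.

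Alox5ap, whose protein presents arachidonic acid to 5-lipoxygenase (chromosome 12, 6854920 to 6879154, ENSRNOG00000000907), had 39.6, 38.7 and 32.0 CPM in SCI_Veh, against 11.4, 12.8 and 27.6 CPM in sham. The SCI_Veh libraries all lay above the sham libraries, of which sham 3 was more than 2-fold above the other two. Alox5ap was 2.12-fold higher (log2 1.09, SE 0.31, edgeR adjusted p = 0.0174). Without SCI_Veh 2, sham 1 and sham 2 the adjusted p was 0.0512, 0.0605 and 0.0799. Without sham 3 it was 0.000501, with a log2 change of 1.62. Over all 21 alternatives the call was lost in 4.

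Alox5 itself (chromosome 4, 148398892 to 148446303, ENSRNOG00000012972) had 8.30, 12.7 and 8.56 CPM in SCI_Veh and 9.17, 8.70 and 16.8 CPM in sham. The groups overlapped, and sham 3 was again the highest sham library. The log2 change was -0.23 with a 95% interval of -0.86 to 0.39 (edgeR adjusted p = 0.548), and it was 0.16 without sham 3. Per length, the FPKM of Alox5ap was 10.01 ± 2.24 times that of Alox5 in SCI_Veh and 3.77 ± 0.519 times in sham (mean ± SD, n = 3), with no overlap between the 2 groups.

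Ltc4s, the synthase of leukotriene C4 (chromosome 10, 35737664 to 35739625, ENSRNOG00000003244), had 5.34, 15.9 and 5.73 CPM in SCI_Veh and 5.76, 12.8 and 22.3 CPM in sham. It varied widely within both groups. The log2 change was -0.60 with a 95% interval of -2.36 to 1.16 (edgeR adjusted p = 0.578). Alox15 (chromosome 10, 56953691 to 56962161, ENSRNOG00000019183) had 3.34, 0.8 and 2.16 CPM in SCI_Veh and 1.11, 1.34 and 3.59 CPM in sham. These levels were low and overlapped, with a log2 change of 0.06 and a 95% interval of -1.45 to 1.56 (edgeR adjusted p = 0.96). For Ltc4s and Alox15, changes of more than 2-fold in either direction lay within the interval.

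Markers of other cells moved beside these genes. Macrophage and microglia markers were higher in SCI_Veh in 12 of 13 genes, with summed levels of 7469.4 to 8285.2 CPM in SCI_Veh and 1790.8 to 2165.5 CPM in sham. Neutrophil markers had 1 of 10 genes higher (Csf3r) and 0 lower, but only 2 of 10 had a log2 change above 0, with a list median of -0.99. Their summed levels were 111 to 253 CPM in SCI_Veh and 87.8 to 782 CPM in sham. The highest of the sham values belonged to sham 3, the library that was also highest of the 3 sham libraries for Alox5, Alox5ap, Ltc4s, Alox15, Ptgs1, Ptges and Hpgds. Platelet markers had 1 of 4 tested genes higher, Pf4, which macrophages also express. No marker of these lists was at 0 counts in all libraries. The part of cell number in the rises was not tested.

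**Figure D2:**
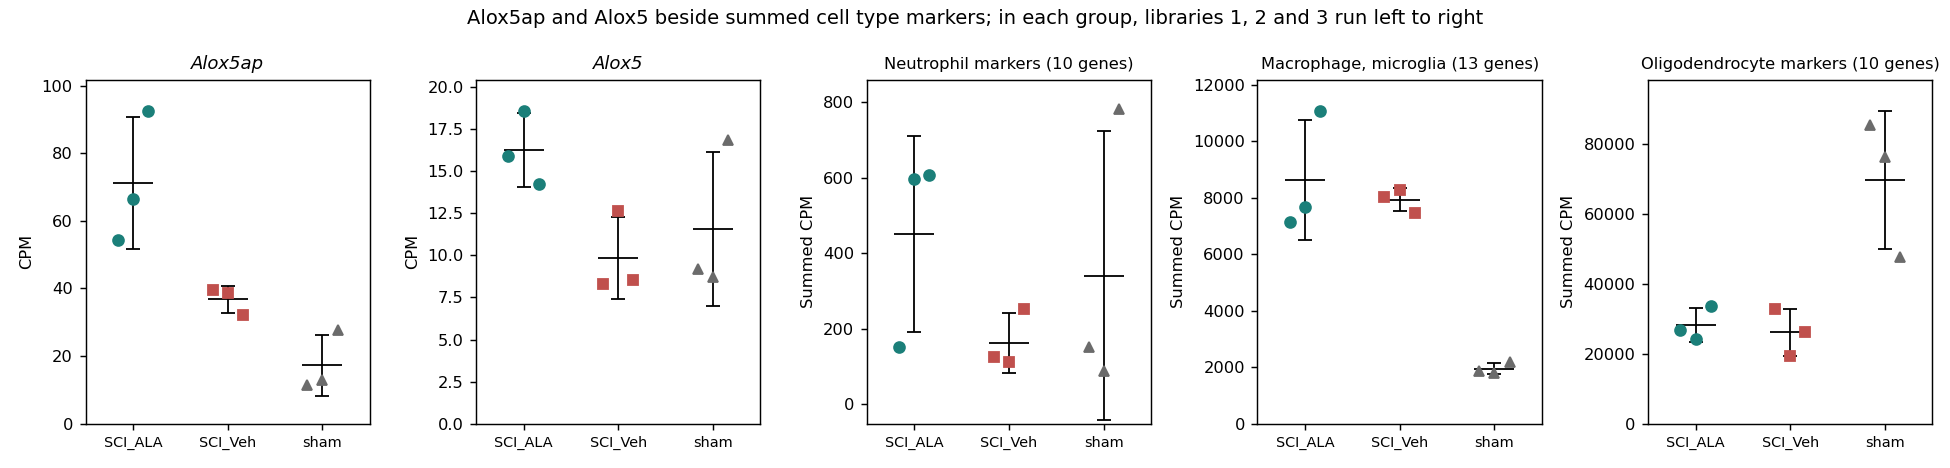
CPM of Alox5ap and Alox5 and summed CPM of neutrophil, macrophage and microglia, and mature oligodendrocyte markers (linear axes) in SCI_ALA, SCI_Veh and sham, with points for libraries 1 to 3 from left to right and each group's mean and SD in black. Sham 3 is the highest sham library for Alox5ap, Alox5 and neutrophil markers, and the macrophage and microglia sums of all injured libraries lie at 7124.2 CPM or more, against 2165.5 CPM or less in sham.

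The whole pathway around these enzymes was followed in 6 further lists of 66 symbols (1 of them an older symbol of Prxl2b), of which 61 were in the table and 51 were tested. In SCI_Veh 13 were higher and 10 lower than in sham, with a median log2 change of -0.15. Over all tested genes 19.5% were higher and 18.5% lower, so the 13 and 10 of 51 lay near the background. Among phospholipases A2, which release the arachidonic acid, 2 of 13 were higher and 4 lower. Pla2g4a, the cytosolic enzyme most tied to eicosanoid release, was about 2-fold higher (log2 0.9996, SE 0.21, edgeR adjusted p = 0.00311), at 30.003 ± 4.17 CPM in SCI_Veh and 14.99 ± 4.01 CPM in sham. Pla2g15, a lysosomal enzyme, was 2.37-fold higher, while Pla2g3, a secreted enzyme, and Pla2g16, known from fat cells, were 2.87-fold and 1.89-fold lower.

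Of 7 further prostanoid enzymes tested, 2 were higher and 2 lower. Tbxas1, thromboxane synthase, had the largest change of any gene in the pathway lists, 8.91-fold higher (log2 3.16, SE 0.28, edgeR adjusted p = 1.168e-05), at 76.5 ± 9.28 CPM in SCI_Veh and 8.58 ± 1.92 CPM in sham. Akr1b8, an aldo-keto reductase, was 8.69-fold higher, while Ptges2, another prostaglandin E synthase, and Prxl2b, a prostaglandin F synthase, were 1.68-fold and 2.51-fold lower. Among the 2 other lipoxygenases tested, Alox12, the platelet-type enzyme, was 2.93-fold higher (edgeR adjusted p = 0.00347), at 6.35 ± 1.30 CPM in SCI_Veh and 2.16 ± 0.595 CPM in sham.

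Prostanoid receptors had 3 of 8 members higher and 0 lower by edgeR, where 19.5% of all genes were higher and 18.5% lower. All 3 encode receptors of prostaglandin E2. Ptger2 was 4.08-fold higher (log2 2.03, SE 0.31, edgeR adjusted p = 0.000384), at 14.0 ± 5.23 CPM in SCI_Veh and 3.43 ± 0.886 CPM in sham, and Ptger1 was 2.24-fold higher. Ptger4, named because it completes that count and chosen after its values were seen, had a log2 change of 2.13 (SE 0.74, edgeR adjusted p = 0.0403). Its level was low, at 2.88 CPM in SCI_Veh and 0.637 CPM in sham, and sham 2 held 0 counts. Ptger3, the fourth gene of the prostaglandin E2 receptors, also chosen after its values were seen, did not pass, at 0.399 CPM in SCI_Veh and 0.978 CPM in sham (log2 -1.29, SE 0.94, edgeR adjusted p = 0.304). Ptgfr and Ptgfrn did not pass (log2 -0.73 and 0.36). No gene of that list was called lower, and 0 had an unadjusted p below 0.05 in that direction.

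Receptors of leukotrienes and of resolving mediators had 2 of 7 members higher and 1 lower. Cmklr1, the chemerin receptor, was 5.08-fold higher (log2 2.34, SE 0.22, edgeR adjusted p = 1.484e-05), and Gpr37, an orphan receptor of oligodendrocytes, was 3.39-fold lower. The other riser, Gpr18, chosen after its values were seen, had a log2 change of 2.05 (SE 0.53). The leukotriene receptor genes tested, Ltb4r, Cysltr1 and Cysltr2, also chosen after their values were seen, did not pass, with log2 changes of -0.50, 0.51 and -1.25 (edgeR adjusted p = 0.646, 0.681 and 0.224), and all were low. Of 14 genes of export, uptake and breakdown, 3 were higher and 3 lower. Abcc4, a prostaglandin exporter, was 3.18-fold higher and Ptgr1, which inactivates leukotriene B4 and reduces prostaglandins, 1.74-fold, while Ptgr2, another prostaglandin reductase, was 1.70-fold lower. Dpep2, a dipeptidase that trims cysteinyl leukotrienes, was 7.13-fold higher (log2 2.83, SE 0.75), at 5.56 ± 1.73 CPM in SCI_Veh. That fold rests on a low sham level, 0.197, 0.158 and 1.93 CPM in sham libraries 1 to 3.

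**Figure D3:**
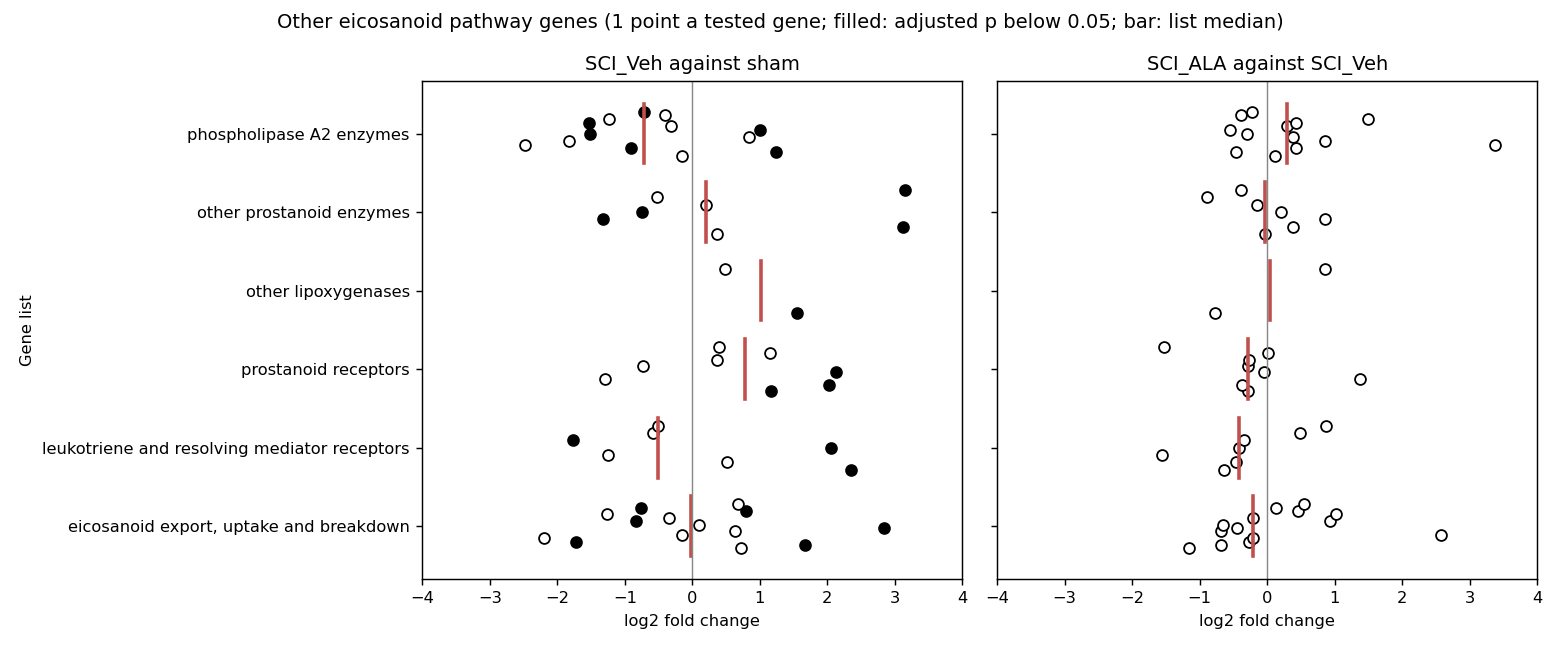
log2 fold changes (edgeR) of the 51 tested genes in 6 other lists of the eicosanoid pathway, SCI_Veh against sham on the left and SCI_ALA against SCI_Veh on the right, with 1 point per gene, filled where the adjusted p was below 0.05, and a bar at each list's median. In SCI_Veh against sham 13 points are filled on the right of 0 and 10 on the left, and in SCI_ALA against SCI_Veh none is filled.

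Between the injured groups, none of the 10 genes passed. By edgeR, 0 of 10 had an adjusted p below 0.05 between SCI_ALA and SCI_Veh, 4 had an unadjusted p below 0.05 (12.3% of all genes did), DESeq2 called 1 (Ptges) and limma on the FPKM values called 0. Over all 16678 genes edgeR called 0.12% (0.0779% higher and 0.042% lower), so its count of 0 in 10 is near the background. DESeq2 called many more, 220 genes higher and 160 lower of the 16639 with an adjusted p. The median log2 change of the 10 genes was 0.49, beside -0.01 over all tested genes. The libraries did not overlap for 5 of the 10 genes, Ptges, Ptgds, Alox5 and Alox5ap (all SCI_ALA libraries above all SCI_Veh libraries) and Lta4h (all below). Among all genes 23.8% did not overlap, 11.6% being higher and 12.2% lower.

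Ptges had 21.1, 52.0 and 30.5 CPM in SCI_ALA, against 11.4, 19.3 and 17.1 CPM in SCI_Veh. SCI_ALA 2 was the highest by far, and SCI_ALA 1 lay just above the SCI_Veh range. The log2 difference was 1.116 with a 95% interval of 0.43 to 1.80 (edgeR adjusted p = 0.198), and the level was higher in 3 of 3 SCI_ALA libraries than in every SCI_Veh library. DESeq2 gave an adjusted p of 0.0401. The adjusted p over the 21 alternatives ran from 0.0401 to 0.6, and the difference did not pass the correction in the other 20.

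Ptgds had 1673, 2207 and 1949 CPM in SCI_ALA, against 626, 1491 and 1158 CPM in SCI_Veh. The SCI_ALA libraries stood between the SCI_Veh libraries and the sham libraries, without overlap with either. The log2 difference from SCI_Veh was 0.83 with a 95% interval of 0.22 to 1.45 (edgeR adjusted p = 0.268). Mature oligodendrocyte markers overlapped between the injured groups, at 24054 to 33611 CPM in SCI_ALA and 19405 to 32638 CPM in SCI_Veh, and 0 of 10 were called by edgeR (1 at an unadjusted p below 0.05). With each library's trend with gene length removed, the log2 difference of Ptgds, a short gene of 786 bases, was 0.61 (adjusted p = 0.369).

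Alox5ap had 54.3, 66.5 and 92.5 CPM in SCI_ALA, against 39.6, 38.7 and 32.0 CPM in SCI_Veh. Its lowest SCI_ALA library was still above the highest SCI_Veh library. The log2 difference was 0.95 with a 95% interval of 0.28 to 1.62 (edgeR adjusted p = 0.248), and it was 0.74 (adjusted p = 0.376) with the length trend removed. Alox5 had 15.9, 18.6 and 14.3 CPM in SCI_ALA, against 8.30, 12.7 and 8.56 CPM in SCI_Veh. Again the groups did not overlap, with a log2 difference of 0.72, a 95% interval of 0.10 to 1.35 (edgeR adjusted p = 0.34) and 0.72 after removal of the length trend. None of these differences passed the correction, and none did under any of the 21 alternatives for Alox5ap, Alox5 or Ptgds.

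Neutrophil markers summed to 152, 597 and 606 CPM in SCI_ALA libraries 1 to 3, against 124, 111 and 253 CPM in SCI_Veh. SCI_ALA 1 lay within the SCI_Veh range and the other SCI_ALA libraries lay above it. Much of that sum was S100a8, at 33.7, 157 and 131 CPM in SCI_ALA libraries 1 to 3, and S100a9, at 56.6, 289 and 248 CPM. Of the 10 markers 9 had a log2 difference above 0, with a list median of 1.52 beside -0.01 over all tested genes. The other marker, Csf3r, was lower in all SCI_ALA libraries than in all SCI_Veh libraries (mean 24.6 against 32.6 CPM, log2 -0.41). None of the 10 was called between the injured groups by edgeR, with 0 at an unadjusted p below 0.05. Macrophage and microglia markers summed to 7124.2, 7674.2 and 11069 CPM in SCI_ALA, overlapping the SCI_Veh range of 7469.4 to 8285.2 CPM. Much of that sum was Lyz2, at 3484.7, 3776.4 and 6271.6 CPM in SCI_ALA libraries 1 to 3. Of these 13 markers 4 had a log2 difference above 0, with a list median of -0.15, and 0 were called by edgeR. All 5 with an unadjusted p below 0.05 were lower in SCI_ALA (Csf1r, Itgax, P2ry12, Tmem119 and Cx3cr1). The part of neutrophils, macrophages and microglia in the Alox5ap and Alox5 differences was not tested.

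The remaining genes gave intervals that include 0. Lta4h had 89.1, 111 and 106 CPM in SCI_ALA, against 118, 113 and 115 CPM in SCI_Veh. All 3 SCI_ALA libraries lay below SCI_Veh, by a small margin (log2 -0.17, 95% interval -0.49 to 0.14, edgeR adjusted p = 0.656). Ptgs1 had 21.95, 21.7 and 27.4 CPM in SCI_ALA, within the SCI_Veh range of 19.5 to 31.5 CPM. Its log2 difference was 0.00 with a 95% interval of -0.50 to 0.50, so the data leave room for a change of up to about that size.

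Ptgs2 had 3.88, 6.59 and 1.65 CPM in SCI_ALA, and Hpgds 2.68, 3.12 and 6.93 CPM. Both overlapped the SCI_Veh libraries, with log2 differences of -0.75 (95% interval -1.94 to 0.44) and -0.02 (95% interval -1.45 to 1.42). Ltc4s had 2.74, 8.39 and 21.0 CPM and Alox15 1.34, 7.56 and 4.46 CPM in SCI_ALA. Both spread more than 5-fold within the group. Their log2 differences were 0.25 (95% interval -1.51 to 2.01) and 1.08 (95% interval -0.40 to 2.56).

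Of the 51 other pathway genes, 0 were called between SCI_ALA and SCI_Veh by edgeR and by DESeq2. Of all genes, edgeR called 0.12%, and DESeq2 called 220 higher and 160 lower of 16639. By edgeR 13 of the 51 had an unadjusted p below 0.05, some higher and some lower in SCI_ALA, where 12.3% of all genes did. The median log2 difference of the 51 was -0.21, beside -0.01 over all tested genes, and 22 of the 51 had a difference above 0. Among those named above, Cmklr1 had 20.5 ± 3.49 CPM in SCI_ALA and 31.9 ± 4.51 CPM in SCI_Veh (log2 -0.64, SE 0.21, edgeR adjusted p = 0.243), and Pla2g4a had 20.4 ± 2.04 CPM in SCI_ALA and 30.003 ± 4.17 CPM in SCI_Veh (log2 -0.56, SE 0.21, edgeR adjusted p = 0.313). Neither passed. Tbxas1 had a log2 difference of -0.38 (SE 0.26, edgeR adjusted p = 0.574). Prxl2b went the other way, at 36.2 ± 7.26 CPM in SCI_ALA and 20.1 ± 0.504 CPM in SCI_Veh. Its log2 difference was 0.85 (SE 0.34, edgeR adjusted p = 0.353), and it did not pass either.

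**Figure D4:**
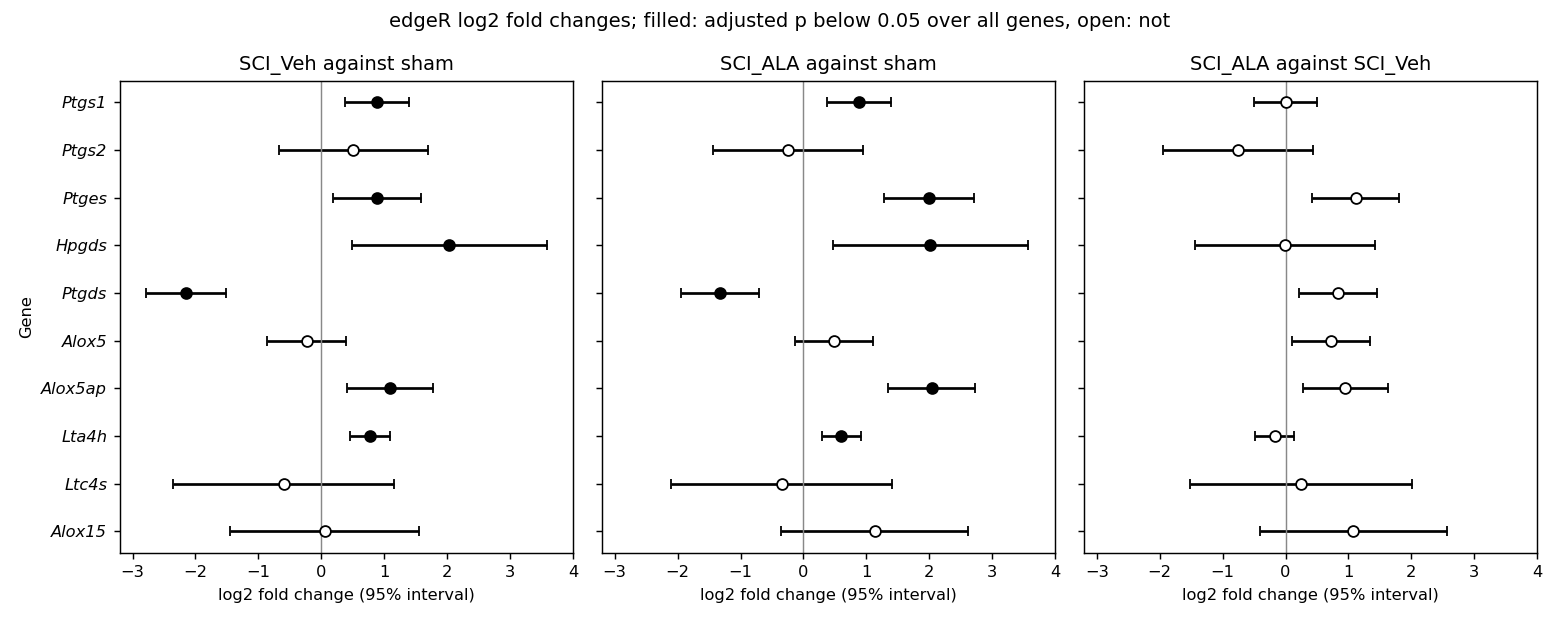
log2 fold changes of the 10 genes with 95% intervals from edgeR for SCI_Veh against sham, SCI_ALA against sham and SCI_ALA against SCI_Veh, filled where the adjusted p over all tested genes was below 0.05. In both comparisons with sham 5 genes are filled on the right of 0 and Ptgds on the left, and between the injured groups none is filled, with the intervals of Ptges, Ptgds, Alox5 and Alox5ap above 0 before correction.

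Against sham, SCI_ALA had 5 of 10 genes higher and 1 lower, where 17.3% of all genes were higher and 15.8% lower (33.1% in all), and 6 of 10 did not overlap. Among all genes 45.7% did not overlap, 23.4% being higher and 22.4% lower. The genes were Ptgs1, Ptges, Hpgds, Alox5ap and Lta4h (higher) and Ptgds (lower). This comparison shares the sham libraries with that of SCI_Veh against sham, and SCI_ALA against SCI_Veh shares libraries with both, so the values are given side by side and not as independent evidence. Ptges was about 4-fold higher in SCI_ALA (log2 1.999, SE 0.33, edgeR adjusted p = 0.000766), beside 1.84-fold in SCI_Veh. Alox5ap was 4.11-fold higher in SCI_ALA (log2 2.04, SE 0.32, edgeR adjusted p = 0.000637), beside 2.12-fold in SCI_Veh. Both calls held under all 21 alternatives in SCI_ALA.

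Ptgds was 2.498-fold lower in SCI_ALA than in sham (log2 -1.32, SE 0.29, edgeR adjusted p = 0.0042), beside 4.45-fold in SCI_Veh. Without SCI_ALA 3 and sham 2 together the adjusted p was 0.0511. Ptgs1 and Lta4h were 1.85-fold and 1.52-fold higher in SCI_ALA (edgeR adjusted p = 0.0121 and 0.00773), beside 1.85-fold and 1.72-fold in SCI_Veh. Hpgds was 4.05-fold higher in SCI_ALA (edgeR adjusted p = 0.0461), beside 4.10-fold in SCI_Veh. The Hpgds call was lost without SCI_ALA 2 (adjusted p = 0.0648), SCI_ALA 3 (0.181), SCI_Veh 1 (0.0503), sham 1 (0.101) or sham 2 (0.106), and that of Ptgs1 without SCI_ALA 3 (0.0516). Over all alternatives the Hpgds call was lost in 10 of the 20 that tested it, and that of Ptgs1 in 2 of 21. Alox5 did not pass (log2 0.49, SE 0.28, edgeR adjusted p = 0.207), but it did without sham 3 (log2 0.88, adjusted p = 0.0289). The difference between the 2 comparisons is that of SCI_ALA against SCI_Veh, in which none of the 10 genes passed by edgeR. Of the 51 other pathway genes 14 were higher and 9 lower in SCI_ALA than in sham, with a median log2 change of 0.05.

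Per length, the order of the 10 genes differed between the groups. In SCI_ALA, Alox5ap followed Ptgds, at 71.1 ± 19.7 FPKM, then Lta4h at 50.02 ± 5.74, Ptges at 27.2 ± 12.5 and Ltc4s at 21.0 ± 18.3 FPKM. In SCI_Veh, Lta4h was second at 56.2 ± 0.577 FPKM, then Alox5ap at 36.6 ± 4.19, Ltc4s at 17.6 ± 11.9 and Ptges at 12.5 ± 3.33 FPKM. In sham the second place also fell to Lta4h, at 33.0 ± 3.98 FPKM, ahead of Ltc4s at 26.8 ± 16.5, Alox5ap at 17.4 ± 9.17 and Ptges at 6.84 ± 1.49 FPKM. The means of Ltc4s and Ptges in both injured groups, and of Ltc4s with both Lta4h and Alox5ap in sham, lay within their spread, and their order differed between libraries. Those of Alox5ap and Lta4h in SCI_ALA also lay within their spread. Within each SCI_ALA library, however, Alox5ap stood above Lta4h (54.1 and 43.5, 66.4 and 54.4, 92.8 and 52.1 FPKM). Ptgs1 and Alox5 were between 3.77 and 8.36 FPKM on average in all groups, and Ptgs2, Hpgds and Alox15 were below 4 FPKM.

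The genes whose pattern was closest to that of Lta4h and Ptgds, the riser and the faller with the smallest p in SCI_Veh against sham, were found among 13001 genes with a mean of at least 50 counts. Likeness was the root mean square distance between log2 CPM values over the 9 libraries, each gene centred on its own mean. For Lta4h they were Nudt21, Actr3, Nans and Rnf149, at distances of 0.07 to 0.08, where the median gene was at 0.50. For Ptgds they were Sbspon, Drd2, Ppp1r1a and Ralyl, at 0.28 to 0.30, where the median gene was at 1.04. Ppp1r1a, for example, averaged 33.5 CPM in SCI_ALA, 22.3 CPM in SCI_Veh and 122 CPM in sham.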

How the data were processed

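Total RNA of 9 spinal cord samples was sequenced in 3 groups of 3, grouped and numbered by their titles. The authors deposited raw counts per gene and FPKM values for the same 36051 genes. The submitters' processing notes name HISAT2 2.0.5, featureCounts 1.5.0-p3 and DESeq2 1.20.0, with no role, and the build Rnor_6.0. Strand setting and filters are not given in the sources used here, so reads from the opposite strand may be counted, although no other gene of the table overlaps any of the 10. The deposited FPKM values fit counts over length, with a library size 0.872 to 1.09 times the total count.

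Counts were fitted on the whole table with edgeR 4.0.16 (R 4.3.3), using filterByExpr (minimum count 10, minimum total 15; 16678 genes), TMM factors and a robust quasi-likelihood model of group means over 9 libraries (6 residual degrees of freedom). Calls used a Benjamini-Hochberg adjusted p below 0.05. Standard errors are the log2 change divided by the square root of F, and intervals are 95%. All 10 genes passed the count filter. Folds are written as the larger group over the smaller. Simulated counts with known changes were used to check the fit. Replicates of a group differed by more than counting noise (chi-square divided by its degrees of freedom, 19.1 to 69.3).

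The 10 genes and the lists were chosen with earlier results of these data known. Named genes were the 10, whatever their result, up to 4 per list with the smallest p in SCI_Veh against sham and a mean of at least 50 counts, and the 4 nearest patterns. Of 15 lists, 6 held pathway genes and 9 cell type markers, and 5 pathway symbols had no match, 1 of them the older symbol of Prxl2b, which is in the table, and the other 4 are not analysed here. Endothelial markers had 1 of 7 tested genes higher and 1 lower in SCI_Veh against sham, and astrocyte and neuron markers had 6 of 7 and 7 of 8 lower. Alternatives were RLE factors, library totals, no filter on counts, a floor of 50 counts in 3 libraries, DESeq2 1.42.0, limma 3.58.1 on log2 FPKM (pseudocount 1 or 0.1 over genes reaching 1 FPKM in 3 libraries, or every gene above 0), a replicate block, only the 2 groups compared, removal of the length trend (loess, span 0.5), each library left out, and SCI_ALA 3 with sham 2 left out. Promoters and figures were handled in Python 3.11.15 with matplotlib 3.10.9.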

Additional observations from a re-analysis of the deposited data

How the results depend on the processing

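Over 21 alternatives, 13 of the 30 member results (10 genes in 3 comparisons) kept their direction and side of the threshold in every alternative run. Hpgds and Alox15 rest on the fewest counts, 425 and 378 over all 9 libraries, and with at least 50 counts required in 3 libraries Hpgds could not be tested. The cause of the changes below was not tested unless the setting itself has fewer genes or libraries.

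The 5 genes higher in SCI_Veh than in sham numbered 3 with at least 50 counts in 3 libraries, 3 with limma on log2(FPKM + 1) with or without the filter, 2 without SCI_ALA 3 and sham 2 together, and 2 to 5 with 1 library left out. Those higher in SCI_ALA than in sham numbered 3 to 6 with 1 library left out and 3 without SCI_ALA 3 and sham 2. The 1 lower in SCI_ALA than in sham (Ptgds) numbered 0 with limma on all genes and 0 without SCI_ALA 3 and sham 2, at adjusted p = 0.0506 and 0.0511. DESeq2 called 1 gene higher in SCI_ALA than in SCI_Veh, where edgeR called 0. Other pathway genes higher in SCI_ALA than in SCI_Veh numbered 2 with only the 2 groups compared. Pathway genes higher and lower in SCI_ALA than in sham numbered 8 to 13 and 4 to 9 with 1 library left out, where the full data gave 14 and 9, and 9 were higher without SCI_ALA 3 and sham 2.

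Changes of sign were confined, among the 30 results, to genes that did not pass. In SCI_ALA against SCI_Veh, the log2 difference of Ptgs1 was -0.059 with library totals, -3.775e-05 with no count filter, -0.11 without SCI_ALA 3 and sham 2, and -0.13 to 0.27 with 1 library left out. That of Hpgds was 0.087 with limma on log2(FPKM + 1) with or without the filter, 0.14 with a pseudocount of 0.1, 0.14 with the replicate block and -0.56 to 0.88 with 1 library left out. That of Ltc4s was -0.085 with the replicate block, -0.12 with the length trend removed, -0.68 without SCI_ALA 3 and sham 2, and -0.69 to 0.96 with 1 library left out. In SCI_Veh against sham, Alox15 was at -0.18 without SCI_ALA 3 and sham 2. With 1 library left out, it ran from -0.44 to 0.79, Ptgs2 from -0.053 to 0.88 and Alox5 from -0.45 to 0.16. In SCI_ALA against sham, Ptgs2 ran from -0.79 to 0.13 and Ltc4s from -1.29 to 0.23.

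Replicate numbers were not shown to pair the samples: deviations of same-numbered libraries of different groups correlated at -0.14 to 0.38, those of other libraries at -0.38 to 0.34, and 3 of 9 libraries matched best with their own number. Over all genes, the 13 higher and 7 lower in SCI_ALA than in SCI_Veh by edgeR numbered 220 and 160 with DESeq2, 85 and 76 with only the 2 groups, 26 and 19 with no count filter, 52 and 34 without sham 2, 0 and 1 with library totals, at most 1 and 2 with limma, 0 and 0 with the replicate block, and at most 4 and 7 without any other library. With the block, 5 and 1 of the 10 genes were called in SCI_Veh against sham, 0 in SCI_ALA against SCI_Veh, and 5 and 1 in SCI_ALA against sham.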
